A study of Homo sapiens with 6 samples.

Results

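Tripartite motif (TRIM) proteins are a large family, most of them RING-type ubiquitin ligases with a B-box and a coiled coil, and many carry a C-terminal PRY-SPRY domain that binds a virus protein or a signalling partner. Interferon raises the transcription of a subset, whose products bind incoming retroviral capsids, mark virus proteins for degradation, or switch the sensors of foreign nucleic acid on and off. Interferon regulatory factor 1 (IRF1) binds the interferon-stimulated response element of target promoters, and in epithelial cells it also holds part of this programme at a basal level without added interferon.

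The 10 interferon-inducible TRIM genes described here were chosen by name: TRIM5, TRIM6, TRIM22 and TRIM34, which lie together on chromosome 11, and TRIM14, TRIM21, TRIM25, TRIM26, TRIM31 and TRIM38. The choice was made with earlier results of these data known. Their counts beside the shares of all genes below are therefore description and not a test of the list. All 10 were found by gene identifier among the 19402 genes of the deposited table. RNA was sequenced from 3 pools of CFPAC1 clones labelled IRF1-KO and 3 pools of WT clones. CFPAC1 is an established human line derived from a ductal adenocarcinoma of the pancreas. The IRF1-KO clones were isolated by dilution after infection with the lentiCRIPSv2 plasmid carrying Cas9 and a guide RNA against IRF1, and the WT clones were isolated the same way from cells infected with the plasmid, with no guide named in their labels. The labels of these 6 libraries list no interferon. They do not give the number of clones in a pool or say whether pools were grown separately, so the spread behind every p-value is that between these pools and may be technical.

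Total counts were between 16413682 and 28258075 in the IRF1-KO libraries and between 18394715 and 21003927 in the WT libraries. The IRF1 transcript itself was higher, not lower, under the IRF1-KO label. It stood at 117, 123 and 132 CPM (counts scaled to a fixed library size) in IRF1-KO replicates 1 to 3, against 87.3, 91.3 and 82.6 CPM in WT replicates 1 to 3. Every IRF1-KO library thus lay above every WT library. The fitted level was 1.43-fold that of WT, a log2 fold change of 0.51 ± 0.10 (SE), at an adjusted p of 0.135 (edgeR quasi-likelihood). The cause of this rise was not tested. Counts summed over all exons do not show an edit of the gene itself, so the knockout is not checked by them. All directions below are those of the labels. Of 11 ductal epithelial markers, 10 averaged at least 1 CPM over the 6 libraries, while CFTR averaged 0.355 CPM in IRF1-KO and 0.452 CPM in WT. Many TRIM genes are also high in leukocytes. Of 13 leukocyte markers 4 had no count in any library, and PTPRC, which encodes the pan-leukocyte protein CD45, averaged 0.0764 CPM in IRF1-KO and 0.0888 CPM in WT. The summed level of those 13 markers ran from 17.3 to 28.4 CPM in IRF1-KO and from 29.5 to 78.8 CPM in WT, most of it from the lysozyme gene LYZ, which epithelial cells can also express.

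All 10 genes had a lower fitted level in the libraries labelled IRF1-KO (53.3% of all tested genes did), and 0 of 10 were past the threshold, an adjusted p of 0.05 over the 13388 genes tested (edgeR quasi-likelihood test, Benjamini-Hochberg). The background was 0.112% of tested genes called lower by that rule. The fitted differences covered a wide range. TRIM22 had 8.13-fold less transcript, TRIM31 4.02-fold less, TRIM14 1.74-fold less and TRIM21 1.61-fold less, and the other 6 genes lay within 0.5 of 0 on the log2 scale. TRIM22 and TRIM31 were not tested against each other, and the 95% interval of TRIM31 (−3.51 to −0.51) includes the value of TRIM22 (−3.02). At an unadjusted p of 0.05, 4 of 10 were lower with edgeR, and 0 were higher, against 3.75% lower and 5.39% higher among all tested genes. DESeq2, an alternative count test, called 3 of 10 lower, TRIM22, TRIM14 and TRIM21, and 0 higher, against 0.937% lower and 1.53% higher of the 13983 genes it tested. In 5 of the 10 genes every IRF1-KO library lay below every WT library, which was so for 6.75% of tested genes, and in 0 genes the reverse held (8.03% of tested genes). The median log2 fold change was −0.41 over the 10 genes and −0.02 over all tested genes. In bulk RNA, fewer cells making a transcript and less transcript per cell cannot be told apart.

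**Figure D1:**
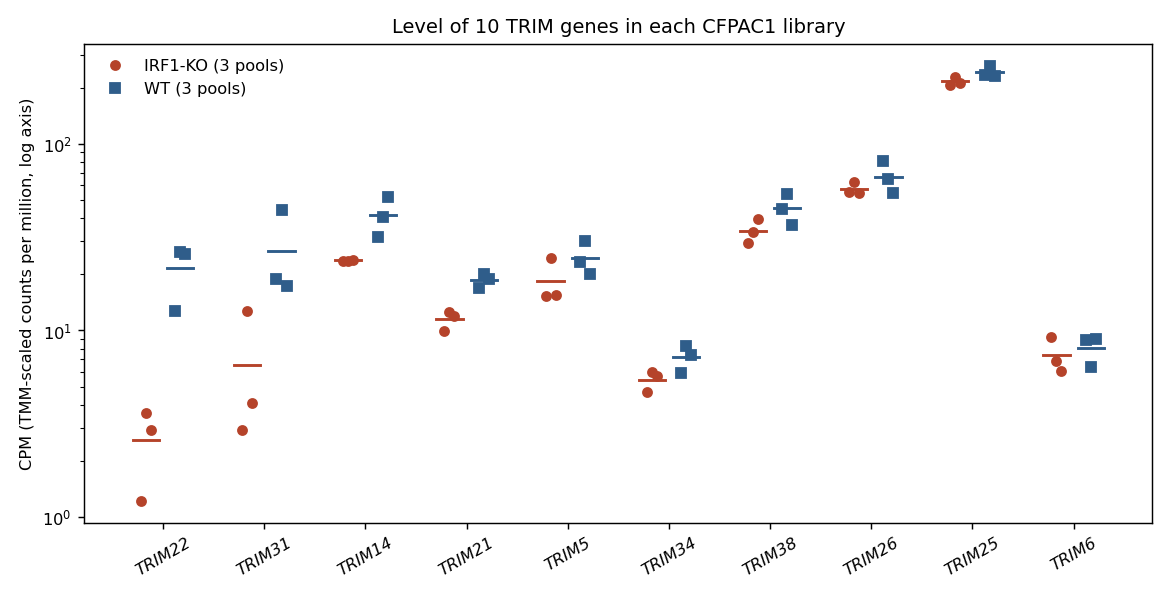
CPM on a log axis for the 10 TRIM genes, ordered by fold change, with the 3 IRF1-KO pools (circles) left of the 3 WT pools (squares) and bars at the group means. TRIM22 lies between 1.22 and 3.63 CPM in IRF1-KO and between 12.6 and 26.3 CPM in WT. The groups overlap in TRIM5, TRIM6, TRIM34, TRIM26 and TRIM38.

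TRIM22 is an interferon-induced ligase known to restrict HIV transcription and to act on the influenza nucleoprotein. Its gene (ENSG00000132274.16; GRCh38 chromosome 11, 5689697 to 5737089, plus strand) was counted 20, 104 and 78 times in IRF1-KO replicates 1 to 3, against 231, 483 and 534 times in WT replicates 1 to 3. Scaled to the libraries this was 1.22, 3.63 and 2.92 CPM in IRF1-KO and 12.6, 26.3 and 25.7 CPM in WT. The groups did not overlap: the highest IRF1-KO library was well under the lowest WT library, WT replicate 1. The means were 2.59 ± 1.24 CPM in IRF1-KO and 21.5 ± 7.70 CPM in WT (SD, n = 3 each). On the log2 scale the fold change was −3.02 ± 0.44 (SE; 95% interval from −4.06 to −1.99), so that the fitted level was 12.3% of WT. The adjusted p was 0.0695 (edgeR quasi-likelihood), just outside the threshold, and by the size of its p-value TRIM22 ranked 36 among the 13388 genes. DESeq2 gave −3.03 with an adjusted p of 8.15e-11. Over the 13 alternatives that do not use the replicate number as a term, among them every library left out in turn, the log2 fold change stayed between −3.34 and −2.69 and the adjusted p between 8.15e-11 and 0.403, with DESeq2 the only one of these under 0.05.

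The other 3 genes of the chromosome 11 cluster had far smaller differences, and all 3 had groups that overlapped. TRIM5 encodes the capsid-binding restriction factor TRIM5-alpha. It is transcribed from the minus strand (ENSG00000132256.18; 5663557 to 5938619, a span that takes in TRIM22 on the other strand). It had 15.2, 24.4 and 15.5 CPM in IRF1-KO and 23.4, 30.3 and 20.0 CPM in WT. IRF1-KO replicate 2 lay above WT replicates 1 and 3, and the log2 fold change was −0.42 ± 0.24 (SE), with a 95% interval from −0.97 to 0.13. TRIM34, a close relative of TRIM5 that also recognises retroviral capsids, had 4.69, 5.97 and 5.69 CPM in IRF1-KO and 5.91, 8.27 and 7.40 CPM in WT, at −0.40 ± 0.22 (interval −0.91 to 0.11). Only IRF1-KO replicate 2 reached into the WT range. TRIM6, which makes free ubiquitin chains that activate the kinase IKK-epsilon, had 9.27, 6.84 and 6.07 CPM in IRF1-KO and 8.87, 6.36 and 9.04 CPM in WT. Its highest library was an IRF1-KO library, and its log2 fold change was −0.13 ± 0.24 (interval −0.69 to 0.43). The adjusted p values of these 3 genes were 0.684 for TRIM5, 0.671 for TRIM34 and 0.920 for TRIM6 (edgeR quasi-likelihood).

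**Figure D2:**
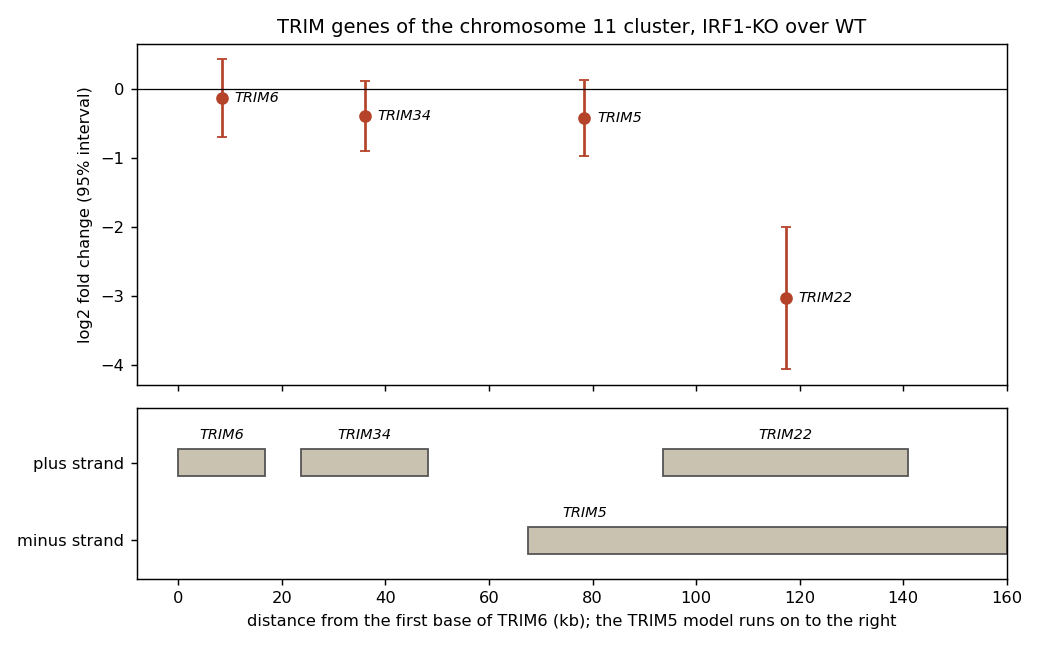
The upper panel gives the log2 fold change, IRF1-KO over WT, with its 95% interval for the 4 TRIM genes of the chromosome 11 cluster; the lower panel draws their extents by strand, in kb from the first base of TRIM6. TRIM22 is at −3.02, and the intervals of TRIM6, TRIM34 and TRIM5 include 0.

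TRIM22 and TRIM5 are neighbours on opposite strands, and their ratio within a library does not depend on how libraries are scaled. There were 0.0800, 0.149 and 0.189 TRIM22 counts for each TRIM5 count in IRF1-KO replicates 1 to 3, against 0.541, 0.867 and 1.28 in WT replicates 1 to 3. Every IRF1-KO library was below every WT library. The mean log2 ratio was −2.93 ± 0.64 in IRF1-KO and −0.25 ± 0.62 in WT (SD, n = 3 each), a difference of −2.69, or a 6.44-fold lower ratio (exact permutation test, two-sided, p = 0.1, the smallest p that 3 against 3 libraries can give). Left out in turn, single libraries moved the difference between −3.01 and −2.33.

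Annotation limits differ between these 4 genes. TRIM22 and TRIM5 share no exonic base in the table, but TRIM22 lies within the span of TRIM5 on the other strand. The strand setting of the counting is not given in the sources used here. Whether unspliced TRIM5 reads entered the TRIM22 counts was not tested. On its own strand TRIM5 shares 151 exonic bases (3.14%) with ENSG00000239920, which had at most 3 counts in a library. In GENCODE 29 the protein-coding gene AC104389.4 covers 382 exonic bases of TRIM5 (7.95%), also on the same strand. It may be the same gene as ENSG00000239920 under another name, which was not checked. On the same strand TRIM22 shares 642 exonic bases (10.8%) with the olfactory receptor gene OR56B1, which had 0 counts in every library. How reads in those shared bases were counted is likewise not given. In GENCODE 29 the readthrough gene TRIM6-TRIM34 covers 83.0% of the exonic bases of TRIM34 and 29.2% of those of TRIM6, so reads of the readthrough transcript cannot be told from reads of either gene. The 4 genes are also paralogs, and how reads that match several of them were counted is not given in the sources used here. Their values are uncertain to that extent.

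TRIM31, TRIM14 and TRIM25 encode proteins of the pathway from the RNA sensor RIG-I to its mitochondrial adaptor MAVS. TRIM31, a ligase that promotes the aggregation of MAVS (ENSG00000204616.11; chromosome 6, 30102897 to 30113090, minus strand), was counted 48, 363 and 109 times in IRF1-KO, against 344, 811 and 362 times in WT. This was 2.93, 12.7 and 4.08 CPM in IRF1-KO and 18.8, 44.1 and 17.4 CPM in WT. The groups did not overlap, but in each of them replicate 2 was more than 2-fold above the other replicates. The means were 6.56 ± 5.32 CPM in IRF1-KO and 26.8 ± 15.0 CPM in WT (SD, n = 3 each). TRIM31 had a log2 fold change of −2.01 ± 0.63 (SE; 95% interval from −3.51 to −0.51), at adjusted p = 0.371 with edgeR and 0.175 with DESeq2. Its size moved with single libraries and was 7.56-fold without IRF1-KO replicate 2 and 2.73-fold without WT replicate 2. GENCODE 29 places an antisense gene, TRIM31-AS1, over 174 of its exonic bases.

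TRIM14, an adaptor of MAVS that lacks the RING domain (ENSG00000106785.15; chromosome 9, 98069275 to 98119222, minus strand), was nearly constant over the IRF1-KO pools and variable over the WT pools. It had 23.7, 23.7 and 24.0 CPM in IRF1-KO and 31.8, 40.4 and 51.8 CPM in WT. The difference in spread rests on 3 pools per group and was not tested. The means were 23.8 ± 0.173 CPM in IRF1-KO and 41.3 ± 10.0 CPM in WT (SD, n = 3 each). This gave a log2 fold change of −0.80 ± 0.18 (SE; 95% interval from −1.21 to −0.38), at adjusted p = 0.180 with edgeR and 0.00940 with DESeq2. It was −0.58 without WT replicate 3, the highest library. An exonic stretch of 422 bases, 7.70% of TRIM14, is shared with NANS on the opposite strand, and the strand setting of the counting is not given in the sources used here.

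TRIM25 is the ligase that modifies RIG-I and works with the zinc-finger antiviral protein ZAP (ENSG00000121060.18, chromosome 17, 56836387 to 56914080, minus strand). Its CPM, which is not scaled by length, was the highest of the 10 genes. It had 207, 228 and 213 CPM in IRF1-KO and 233, 262 and 230 CPM in WT. Every IRF1-KO library was lower than every WT library, though the nearest pair, IRF1-KO replicate 2 and WT replicate 3, almost met. TRIM25 was at −0.16 ± 0.11 (log2 fold change, SE), with a 95% interval from −0.41 to 0.08 and an adjusted p of 0.734 (edgeR quasi-likelihood). The interval bounds the level at 75.4% to 106% of WT. TRIM25 shares 132 exonic bases with C17orf67 on its own strand and 80 with DGKE on the other. In GENCODE 29 the antisense gene AC015912.1 covers 538 exonic bases of TRIM25, and the microRNA gene MIR3614 covers 86.

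TRIM21 encodes a cytosolic antibody receptor that directs antibody-coated viruses to the proteasome, known also as the autoantigen Ro52. Its gene lies on chromosome 11 apart from the cluster (ENSG00000132109.10; 4384897 to 4393702, minus strand), and it shares no exonic base with another gene of the table. It was counted 164, 360 and 320 times in IRF1-KO and 309, 370 and 391 times in WT. Scaled to the libraries, of which IRF1-KO 2 and 3 were the deepest, this was 10.0, 12.6 and 12.0 CPM in IRF1-KO and 16.9, 20.1 and 18.8 CPM in WT. The groups did not overlap and both were tight, with means of 11.5 ± 1.35 CPM in IRF1-KO and 18.6 ± 1.62 CPM in WT (SD, n = 3 each). Its log2 fold change was −0.69 ± 0.16 (SE; 95% interval from −1.05 to −0.33), at adjusted p = 0.180 with edgeR and 0.0161 with DESeq2. Over the 13 alternatives it stayed between −0.76 and −0.58.

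TRIM26 and TRIM38 regulate the signalling downstream of the sensors. TRIM38, which limits signals from Toll-like and TNF receptors (ENSG00000112343.11; chromosome 6, 25962802 to 25991231, plus strand), had 29.5, 33.9 and 39.6 CPM in IRF1-KO and 45.0, 53.8 and 36.8 CPM in WT. IRF1-KO replicate 3 lay above WT replicate 3. The log2 fold change was −0.40 ± 0.17 (SE), with a 95% interval from −0.80 to 0.01 and an adjusted p of 0.554 (edgeR quasi-likelihood). GENCODE 29 places an antisense gene, U91328.2, over 273 exonic bases of TRIM38. TRIM26, a ligase that acts on nuclear IRF3 (ENSG00000234127.9; chromosome 6, 30184455 to 30213427, minus strand), had 55.0, 62.1 and 54.6 CPM in IRF1-KO and 80.9, 64.5 and 54.2 CPM in WT. WT replicate 3 was the lowest of all 6 libraries and WT replicate 1 the highest. The log2 fold change was −0.22 ± 0.16 (interval −0.59 to 0.15; adjusted p = 0.775).

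**Figure D3:**
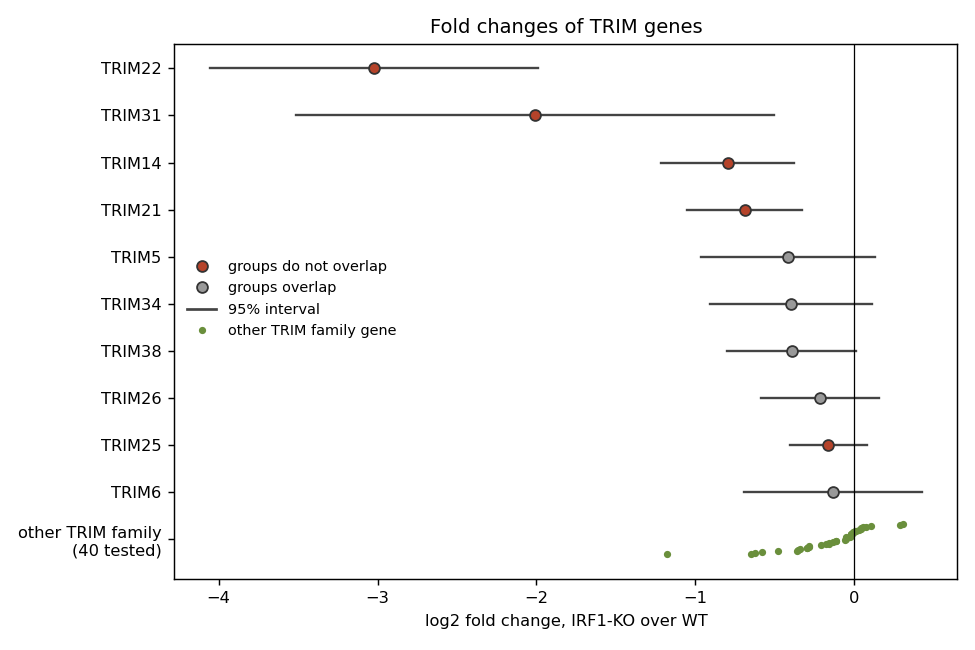
Log2 fold changes, IRF1-KO over WT, of the 10 TRIM genes with 95% intervals, and of the 40 other tested TRIM family genes as dots in the lowest row. The intervals of TRIM22, TRIM31, TRIM14 and TRIM21 lie below 0; those of the other 6 include it.

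Levels of different genes can be compared only per length, here as CPM per kilobase of the exon length in the table. On that scale TRIM25 led in both groups, with a level of 22.7 ± 1.13 in IRF1-KO and 25.5 ± 1.86 in WT, followed by TRIM26 at 13.1 ± 0.968 in IRF1-KO and 15.2 ± 3.08 in WT (SD, n = 3 each). In IRF1-KO the order went on with TRIM21 (5.95), TRIM14 (4.34), TRIM5 (3.82), TRIM38 (3.65), TRIM34 (2.03), TRIM6 (1.86), TRIM31 (1.86) and TRIM22 (0.436). In WT it went on with TRIM21 (9.62), TRIM31 (7.61), TRIM14 (7.54), TRIM5 (5.11), TRIM38 (4.80), TRIM22 (3.62), TRIM34 (2.67) and TRIM6 (2.04). TRIM22 thus had rank 10 of the 10 in IRF1-KO and rank 8 in WT, and TRIM31 rank 9 in IRF1-KO and rank 4 in WT. Several neighbours in these orders were closer than the larger of their SDs. In IRF1-KO these were TRIM14 with TRIM5, TRIM5 with TRIM38, and TRIM34, TRIM6, TRIM31 and TRIM22 each with the next. In WT they were TRIM21, TRIM31 and TRIM14 each with the next, and likewise TRIM5, TRIM38, TRIM22 and TRIM34.

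Summed over the 10 genes, the level was 359, 414 and 378 CPM in IRF1-KO and 477, 556 and 472 CPM in WT. TRIM25 made up between 55.1% and 57.7% of that sum in the IRF1-KO libraries and between 47.1% and 48.9% in the WT libraries. TRIM22 made up between 0.340% and 0.877% in IRF1-KO and between 2.65% and 5.44% in WT. These are shares of reads and not of transcripts, since CPM is not scaled by length. TRIM25 had the longest exon length of the 10 genes, 9501 bases.

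The promoters of several members hold the core of the interferon-stimulated response element, to which IRF proteins bind. RefSeq windows from 250 bases before to 50 bases after a gene start were on hand for 9 of the 10 genes, with 2 starts for TRIM34, and not for TRIM22. The letters GAAA, any 2 bases, GAAA were searched on both strands (on the other strand they read TTTC, any 2 bases, TTTC), and matches may overlap. They occur in 5 of these 10 windows and in 3.57% of the 35116 windows of all genes, many of which have several starts. The stretches below are shown because they are the matches themselves, in the direction of the gene, with the matched letters in capitals (RefSeq, GRCh38.p14). TRIM21 is at chr11:4393663-4393692 on the minus strand, just after the gene start, with a pair of overlapping matches.
TRIM21: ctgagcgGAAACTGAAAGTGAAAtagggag
TRIM14 is at chr9:98119223-98119268 on the minus strand.
TRIM14: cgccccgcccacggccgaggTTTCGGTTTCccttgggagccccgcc
TRIM5 is at chr11:5685082-5685111 on the minus strand, a stretch that lies wholly within the exons counted for TRIM5.
TRIM5: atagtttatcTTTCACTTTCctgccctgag
TRIM34 is at chr11:5624891-5624940 on the plus strand, before the first of its starts.
TRIM34: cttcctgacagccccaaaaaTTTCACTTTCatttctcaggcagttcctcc
TRIM26 is at chr6:30213565-30213620 on the minus strand, also with an overlapping pair.
TRIM26: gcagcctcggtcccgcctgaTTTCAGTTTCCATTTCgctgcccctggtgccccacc

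The windows of TRIM6, TRIM25, TRIM31 and TRIM38 do not hold these letters. The STAT-type letters TTC, any 3 bases, GAA, which read the same on both strands, were in 0 of the 10 windows and in 7.66% of all windows. The 5 genes with a match had log2 fold changes of −0.80 for TRIM14, −0.69 for TRIM21, −0.42 for TRIM5, −0.40 for TRIM34 and −0.22 for TRIM26. Those without a match were at −2.01 for TRIM31, −0.40 for TRIM38, −0.16 for TRIM25 and −0.13 for TRIM6. A match describes the letters of the window and is not a measured binding site.

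**Figure D4:**
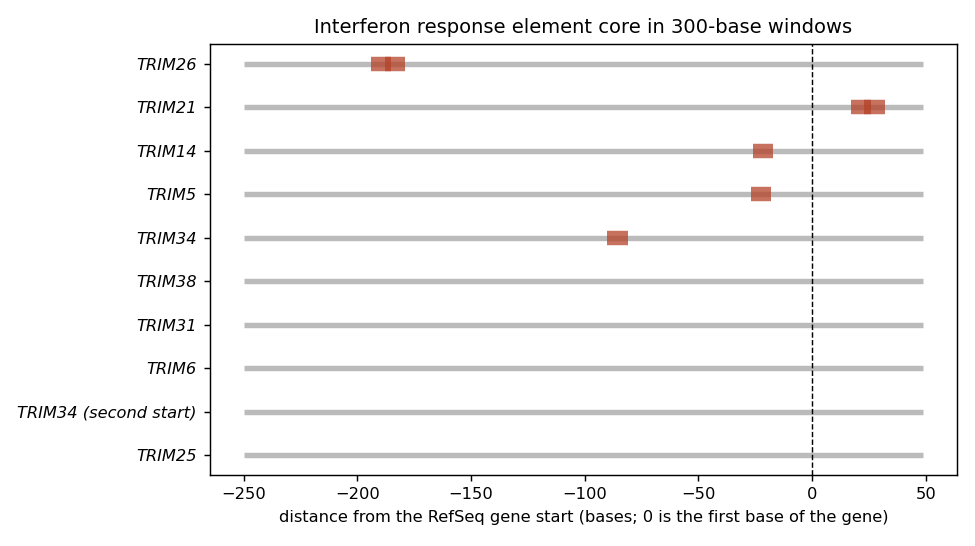
Position of the response element core on either strand (thick bars) in the 10 RefSeq windows of 9 TRIM genes, in bases from the gene start, where 0 is the first base of the gene. Windows of TRIM26, TRIM21, TRIM14 and TRIM5 and the first start of TRIM34 hold matches, and those of TRIM38, TRIM31, TRIM6 and TRIM25 and the second start of TRIM34 hold none.

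The rest of the TRIM family gives the setting for these values. Of 70 other family genes in the table, 40 were tested, and 0 were past the threshold with edgeR, while an unadjusted p of 0.05 was passed by 3 lower and 1 higher, and DESeq2 called 2 lower. Among all tested genes 3.75% were lower and 5.39% higher at that unadjusted p, and DESeq2 called 0.937% lower. The median log2 fold change of the 40 family genes was −0.06. In 4 of the 40 every IRF1-KO library lay below every WT library (6.75% of all tested genes). In 1 of the 40 the reverse held (8.03% of all tested genes). The family genes with the smallest p were TRIM56, PML, TRIM24 and TRIM28. TRIM56, an interferon-inducible ligase that binds RNA, averaged 47.3 ± 6.17 CPM in IRF1-KO and 73.1 ± 7.44 CPM in WT (SD, n = 3 each), at −0.63 ± 0.14 (SE). PML, the organiser of nuclear bodies, was at −0.65 ± 0.16, with 65.6 ± 10.9 CPM in IRF1-KO and 103 ± 13.1 CPM in WT. TRIM24, a cofactor of nuclear receptors, was at −0.34 ± 0.12, and TRIM28, the corepressor of KRAB zinc-finger proteins, at 0.29 ± 0.12 (SE). Their adjusted p values were between 0.169 and 0.543 (edgeR quasi-likelihood).

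Among 36 partners of these TRIM proteins in virus sensing and ubiquitin transfer, 0 were past the threshold with edgeR, 5 were lower and 1 higher at unadjusted p = 0.05, and 3 were called lower by DESeq2. Among all tested genes the shares were 3.75% lower and 5.39% higher at that p, and 0.937% lower with DESeq2. The median log2 fold change of the 36 partners was −0.01. NMI and IFI35, interferon-induced proteins that bind each other, were at −1.11 ± 0.16 and −0.97 ± 0.21 (SE). NMI had 22.1, 22.5 and 18.1 CPM in IRF1-KO and 53.7, 40.3 and 41.1 CPM in WT. IFIH1, which encodes the RNA sensor MDA5, was at −1.28 ± 0.25, and ZC3HAV1, which encodes the TRIM25 partner ZAP, was at −0.38 ± 0.11. Adjusted p values of these 4 genes lay between 0.0663 and 0.292 (edgeR quasi-likelihood).

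Of 20 genes of interferon signalling, 18 were tested and 0 were past the threshold with edgeR, with 8 lower and 1 higher at unadjusted p = 0.05 and 3 called lower by DESeq2. The shares among all tested genes were again 3.75% lower and 5.39% higher at that p, and 0.937% lower with DESeq2. The median log2 fold change of the 18 tested signalling genes was −0.31. NLRC5, the activator of MHC class I genes, averaged 17.2 ± 5.74 CPM in IRF1-KO and 35.6 ± 2.07 CPM in WT (SD, n = 3 each), at a log2 fold change of −1.04 ± 0.22 (SE). USP18, which removes ISG15 and dampens the interferon receptor, was at −1.23 ± 0.30, and STAT2 at −0.61 ± 0.17. Adjusted p values of these 3 genes ran from 0.166 to 0.299 (edgeR quasi-likelihood). These 3 lists are given beside the TRIM genes by counts and medians alone.

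The genes whose pattern over the 6 libraries was nearest to the mean of the 10 TRIM genes were looked up by the root mean square distance of log2 CPM, centred on each gene's own mean. The TRIM mean stood at −0.66, −0.16 and −0.45 in IRF1-KO replicates 1 to 3 and at 0.27, 0.61 and 0.38 in WT replicates 1 to 3. Replicate 2 of this mean was thus the highest library in each group. The mean leans on TRIM22, at −2.43, −0.93 and −1.23 in IRF1-KO replicates 1 to 3, and on TRIM31, at −1.93, 0.15 and −1.47. It is not a pattern that all 10 genes share, since TRIM14 stood at −0.39, −0.39 and −0.37 in those libraries. The 5 nearest genes were MCTP2 at a distance of 0.0732, TAPBP at 0.0932, MTMR11 at 0.0947, PARP9 at 0.107 and HLA-E at 0.109 on the log2 scale. TAPBP encodes tapasin, which loads peptides on MHC class I, and HLA-E is a nonclassical MHC class I gene whose reads can be shared with other HLA genes. PARP9 is interferon-induced and works with the ligase DTX3L. In each of these 5 genes all IRF1-KO libraries lay below all WT libraries, which the way they were looked up favours.

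Base composition moved with the groups. The median log2 fold change was 0.52 in genes over 65% GC, while the 10 TRIM transcripts held between 40.6% and 56.0% GC. With a correction for GC content, TRIM22 was at −2.96, TRIM31 at −1.94, TRIM14 at −0.73 and TRIM21 at −0.62 (log2 fold change), and 0 of the 10 were past the threshold. All 10 genes kept a negative log2 fold change in each of the 13 alternatives. The summed leukocyte markers moved with the groups as given above. Their part in the TRIM values was not tested, and 3 of the 13 averaged at least 1 CPM. These were LYZ, with 20.1 CPM in IRF1-KO and 43.1 CPM in WT, CD14, with 1.87 CPM in IRF1-KO and 1.19 CPM in WT, and ITGAM, with 1.52 CPM in IRF1-KO and 1.66 CPM in WT. CD2, MS4A1, FCGR3A and TYROBP had no count in any library.

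**Figure D5:**
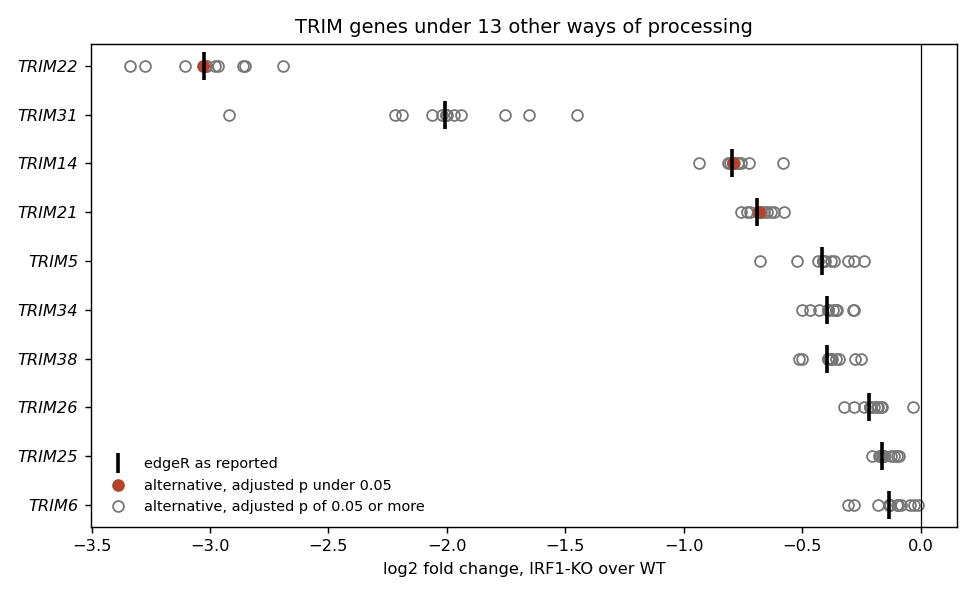
Log2 fold change, IRF1-KO over WT, of each TRIM gene as reported (vertical tick) and under 13 alternatives (circles), which are other scaling factors, filters and tests, a GC correction and each library left out in turn. Filled circles have an adjusted p under 0.05: those of TRIM22, TRIM14 and TRIM21 are from DESeq2, and TRIM31 spans −2.92 to −1.45.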

How the data were processed

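Poly(A)-selected RNA of 6 CFPAC1 libraries was sequenced, per the labels' protocols. The authors deposited whole-number counts per gene and an exon length, in the column layout of featureCounts; featureCounts 0.6.1, edgeR 3.2.2 and GRCh38 are named in the submitters' processing notes. The sources used here do not name the aligner, the annotation or the strand setting.

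Counts were tested in R 4.3.3 with edgeR 4.0.16 (filterByExpr, TMM factors, robust dispersion, quasi-likelihood F test, two-sided, Benjamini-Hochberg over 13388 genes, threshold 0.05). SEs and 95% intervals follow from the F statistic. Folds are powers of 2 of the fitted value. Centred log2 CPM used a prior count of 2. The alternatives were upper-quartile or RLE factors, no count filter, at least 5 CPM in 3 libraries, DESeq2 1.42.0, limma-voom (limma 3.58.1), the replicate number as a block, a GC correction (spline with 5 degrees of freedom on transcript GC from GENCODE 29), a 2-fold rule and leaving out each library. The procedure was tested on simulated counts. Libraries of a group differed beyond sampling noise, at chi-square values per degree of freedom from 25.8 to 55.0.

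Named were IRF1, the 10 TRIM genes, up to 4 genes per list by smallest p, the 5 genes nearest in pattern (mean of at least 2 CPM) and overlapping genes. Members and lists were chosen with earlier results of these data known. A gene that this rule selects from the signalling list is not reported here. Other samples of the series were not analysed here.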

Additional observations from a re-analysis of the deposited data

How the results depend on the processing

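No TRIM gene changed direction under any of the 15 alternatives, and 144 of 150 values stayed on their side of the threshold; the other 6 passed it. Of the 10 TRIM genes, 0 were called as reported, 3 with DESeq2, 2 with the replicate number as a block (TRIM22 at −3.09, adjusted p = 0.0131, and TRIM31 at −2.16, adjusted p = 0.0450) and 1, TRIM22, with the GC correction and the block together (−3.05, adjusted p = 0.0190, edgeR quasi-likelihood). The labels do not say that a replicate number marks a shared batch. Deviations of IRF1-KO and WT libraries with the same number correlated at −0.02, 0.25 and 0.06 across genes for numbers 1 to 3. Between IRF1-KO and WT libraries with different numbers the correlations ran from −0.295 to 0.245. The numbers were therefore not taken to pair the pools.

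Over all genes the count of calls was 17 as reported, 31 with no filter on low counts, 345 with DESeq2, 31 with the block and 11 with the GC correction and the block together; the cause was not tested. Without single libraries it ran from 3 to 91, and 0 TRIM genes were called in each of those fits. The count over all genes was 3 without IRF1-KO replicate 1 or 3, 5 without WT replicate 2 and 91 without WT replicate 3. The TRIM22 to TRIM5 difference ran from −3.01 to −2.33 without single libraries; scaling by length cancels in it. Depth limits TRIM22 most, which had 20 counts in IRF1-KO replicate 1.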
